A study of Mus musculus with 2 samples.

Results

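The interstitial matrix genes are 40 of the 32589 genes counted in single nuclei of newborn mouse ureters. They were listed by name from their known roles, with earlier results of these data known, and no measured value was part of the rule: 14 collagen chains, 11 elastic fibre genes, 2 cross-linking enzymes, 6 proteoglycans and 7 glycoproteins and matricellular proteins. Unfixed, flash-frozen ureters were taken on postnatal day 0 and pooled by genotype, 14 Pax2-cre/+;DNp63fl/fl;R26mTmG/+ mice (DNp63cKO) and 13 control mice, whose genotype is labelled wt. The labels do not say whether control mice carried Pax2-cre or R26mTmG. Pax2-cre is active in the nephric duct lineage, from which the ureter epithelium grows, and the deleted product, the p63 isoform without the N-terminal transactivation domain, belongs to basal epithelial cells, whereas most of this matrix is made by mesenchymal cells. Each pool gave 1 library, so no difference between genotypes has a replicate, and no p-value is given.

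The interstitial matrix is the fibrous material between the cells of a tissue. Fibrillar collagens give it tensile strength, elastin laid on fibrillin microfibrils gives it recoil, and small leucine-rich proteoglycans bind collagen and space its fibrils. In the ureter it fills the connective tissue under the epithelium and around the peristaltic muscle, and fibroblasts and smooth muscle cells secrete most of it.

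The DNp63cKO library held 5528 nuclei and 9859451 unique molecular identifiers (UMIs, each standing for 1 captured RNA molecule), and the control library held 9062 nuclei and 16063644 UMIs. Their medians were 1298 and 1124.5 UMIs per nucleus, and 58 nucleus barcodes occurred in both libraries. After filtering, 5172 and 8373 nuclei were clustered without the 40 genes, so that these genes did not define the clusters. Classes are called by known markers with the ending "-like", and 229 and 318 nuclei in 3 clusters were left unnamed. Urothelium-like nuclei were the largest class, 2222 in DNp63cKO and 5116 in control, followed by smooth-muscle-like nuclei with 1279 and 1609 and fibroblast-like nuclei with 910 and 820. Endothelium-like nuclei numbered 298 and 332, and pericyte-like nuclei 86 and 75. Free RNA from broken cells, which is caught with every nucleus, was estimated from epithelial genes at 36.4% of fibroblast-like UMIs in DNp63cKO and 28.7% in control, and at 29.7% and 24% in smooth-muscle-like nuclei. In pericyte-like nuclei it came to 70.1% and 30.9%, and its part in the differences below was not tested except where a value with free RNA subtracted is given. Levels are a gene's UMIs scaled to the total UMIs of the class (CPM), and ratios are log2 of CPM + 5, DNp63cKO over control. Intervals are exact at 95% and cover counting error only. Introns may have been counted, so levels are compared between classes for 1 gene and not between genes.

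Summed over the 40 genes, fibroblast-like nuclei gave the largest share of their UMIs to this matrix, 3.88% in DNp63cKO (interval 3.85 to 3.92%) and 4.88% in control (4.83 to 4.92%). Smooth-muscle-like nuclei gave 1.57% and 1.96%, endothelium-like nuclei 0.927% and 1.06%, and pericyte-like nuclei 0.885% and 0.936%. Urothelium-like nuclei gave 0.335% and 0.254%, the lowest share of the 5 classes in both libraries and the only share of these 5 that was higher in DNp63cKO.

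Among the 5 classes above, most of the genes were highest in fibroblast-like nuclei, 30 of 40 in DNp63cKO and 29 of 40 in control, where 17.5% and 17.2% of all genes were highest in that class. The small macrophage-like and glia-like classes, not among the 5, held higher levels of Fn1 and Tnc in both libraries. In control they also held higher levels of Thbs1, Col15a1, Col16a1, Col18a1 and Fmod. The control glia-like levels of Col15a1, Col16a1 and Col18a1 rested on 9, 10 and 24 UMIs. Their intervals overlapped those of the highest of the 5 classes, so that order is not resolved. The fibroblast-like class was recognised by 15 fibroblast markers outside the matrix list, such as Pdgfra, Dpt and Ebf2. There they summed to 4627 CPM in DNp63cKO and 4786 CPM in control, against 1782 and 1935 CPM in smooth-muscle-like nuclei. All 15 were detected in smooth-muscle-like, urothelium-like and endothelium-like nuclei as well. The median gene was 2.44 times as high in fibroblast-like as in smooth-muscle-like nuclei in DNp63cKO and 2.32 times in control. Tnxb, which encodes tenascin X of loose connective tissue, had the widest gap, 333 against 44.3 CPM in DNp63cKO and 344 against 45.5 CPM in control. Col14a1, a collagen that sits on the surface of fibrils, was at 821 against 138 CPM and 1059 against 201 CPM.

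Smooth-muscle-like nuclei held the highest level of 5 genes in both libraries, namely Col6a3, Efemp2, Ltbp1, Emilin1 and Bgn. Col6a3, a chain of the microfibrillar collagen VI, was at 511 CPM there and 314 CPM in fibroblast-like nuclei of DNp63cKO, and at 609 and 359 CPM in control. Emilin1, a glycoprotein at the interface of elastin and microfibrils, was at 201 and 132 CPM in DNp63cKO and 224 and 135 CPM in control. The intervals of the muscle and fibroblast levels overlapped for Bgn and Ltbp1 in both libraries and for Efemp2 in control, so the order of these classes is not resolved for them.

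Endothelium-like nuclei held the highest level of Eln, Fbln2 and Fbln5, which encode elastin and a pair of fibulins that help assemble elastic fibres, though the interval overlapped that of fibroblast-like nuclei for Eln in both libraries and for Fbln5 in DNp63cKO. Within the class these genes stood in cluster 16, whose leading genes, Gja5, Sox17 and Sema3g, are known from arterial endothelium. In control, Fbln5 was at 730 CPM in cluster 16 and 122 CPM in cluster 13, the larger endothelium-like cluster, and Fbln2 was at 876 and 233 CPM. In DNp63cKO, Fbln5 was at 460 and 66.4 CPM and Fbln2 at 520 and 95.5 CPM. Col18a1, whose product carries the endostatin fragment and belongs to basement membrane zones, was highest of the 5 classes in urothelium-like nuclei in both libraries, but in control its interval overlapped that of endothelium-like nuclei. Fmod and Col15a1 were the members whose highest class differed between the libraries, and neither was apart from the next class by its interval.

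**Figure D1:**
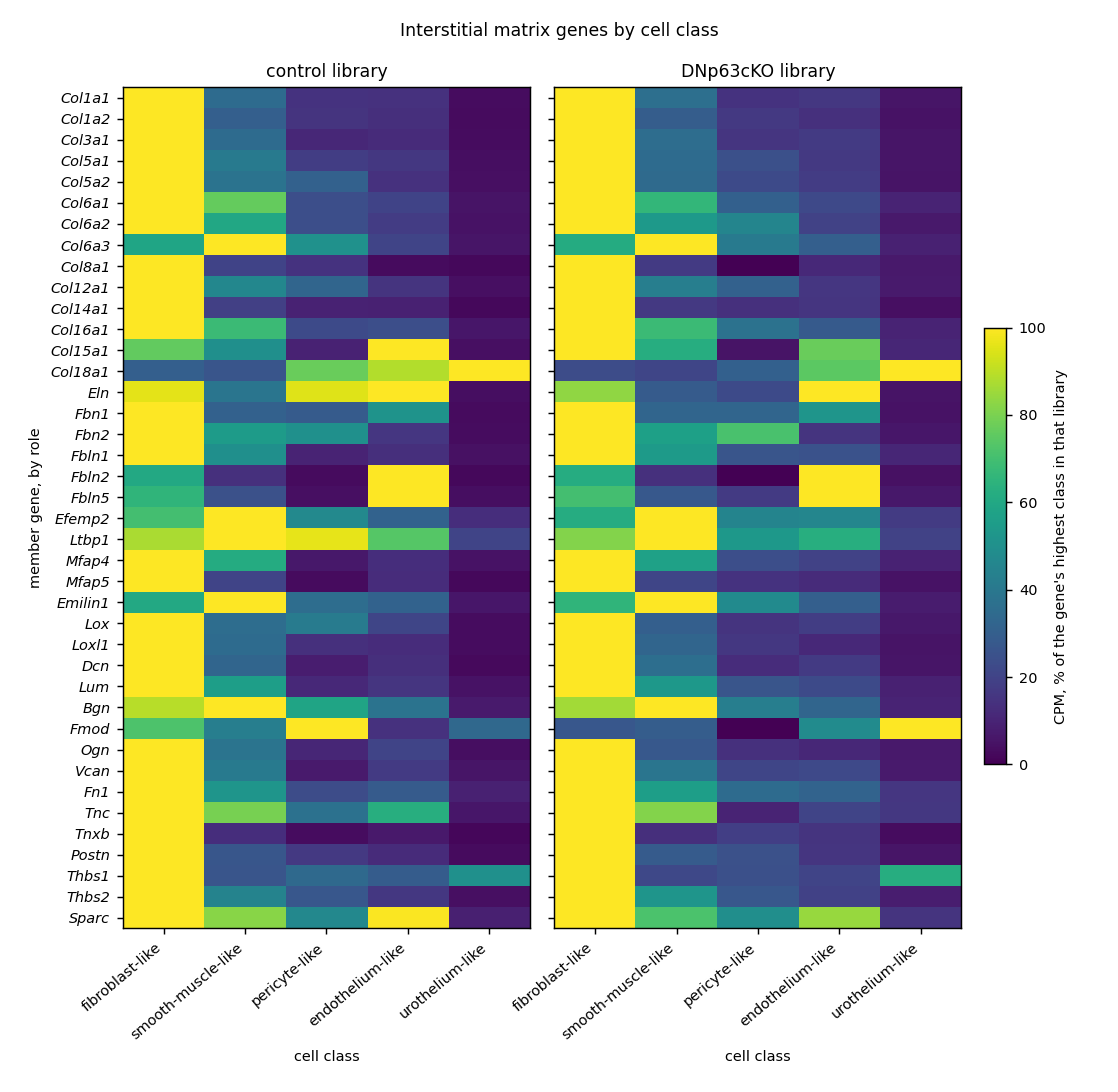
Level of each of the 40 genes in 5 cell classes, coloured as a percent of the gene's own highest class in that library (0 to 100%), with the genes in order of role from fibrillar collagens to glycoproteins. The fibroblast-like column is brightest for 29 genes in control and 30 in DNp63cKO, and Col18a1 is brightest in the urothelium-like column of both libraries.

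Fibroblast-like nuclei formed 2 clusters, and more of the matrix genes were higher in cluster 10 than in cluster 8 in both libraries. Cluster 8 held 527 DNp63cKO and 429 control nuclei and was led by genes outside the list such as Nkain3, Fndc1 and Bmp6, and cluster 10 held 383 and 391 nuclei and was led by Dlk1, Fgf10, Clec3b and others. Of the 15 fibroblast markers, 9 reached 50 CPM in cluster 8 and 15 in cluster 10. Among the 10 leading genes against all nuclei, cluster 8 had 0 of these markers and cluster 10 had 3. The matrix list summed to 30340 CPM in cluster 8 and 51311 CPM in cluster 10 of DNp63cKO. In control it summed to 36228 and 62080 CPM. Of 39 members with 20 or more UMIs in these clusters in each library, 18 were past 1.5-fold higher in cluster 10 in both libraries and 1, Col12a1, was past 1.5-fold higher in cluster 8, against 4.03% and 4.19% of all genes. Fmod had too few UMIs for this comparison. Since clusters were drawn from the same nuclei, these values are descriptive.

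The genes high in cluster 10 included the leucine-rich proteoglycans Dcn, Lum and Ogn, while Bgn was at 218 CPM in cluster 8 and 159 CPM in cluster 10 of DNp63cKO and at 242 and 250 CPM in control. Ogn, osteoglycin, was at 88.4 CPM in cluster 8 and 344 CPM in cluster 10 of DNp63cKO, and at 112 and 322 CPM in control. Dcn, decorin, was at 2062 and 5342 CPM in DNp63cKO and 2578 and 5456 CPM in control. Col3a1, the main fibrillar collagen of distensible tissues, was at 5386 and 11723 CPM in DNp63cKO and 7231 and 15916 CPM in control. Ogn, Dcn and Col3a1 were each more than 2 times as high in cluster 10 in each library.

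Elastic fibre genes were split. Fbln2 and Mfap5, a microfibril glycoprotein, were higher in cluster 10, with Mfap5 at 205 and 597 CPM in DNp63cKO and 254 and 516 CPM in control. Eln went the other way, with 315 CPM in cluster 8 and 101 CPM in cluster 10 of DNp63cKO, and 419 and 296 CPM in control. Mfap4, which binds elastin and microfibrils, was at 650 and 300 CPM in DNp63cKO and 551 and 482 CPM in control, and Fbln1 was at 489 and 264 CPM and at 533 and 368 CPM. The log2 ratio of cluster 10 over cluster 8 was -1.60 for Eln in DNp63cKO (interval -2.13 to -1.19) and -0.49 in control (-0.84 to -0.16), intervals that do not overlap. For Mfap4 it was -1.10 (-1.40 to -0.84) and -0.19 (-0.47 to 0.08).

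**Figure D2:**
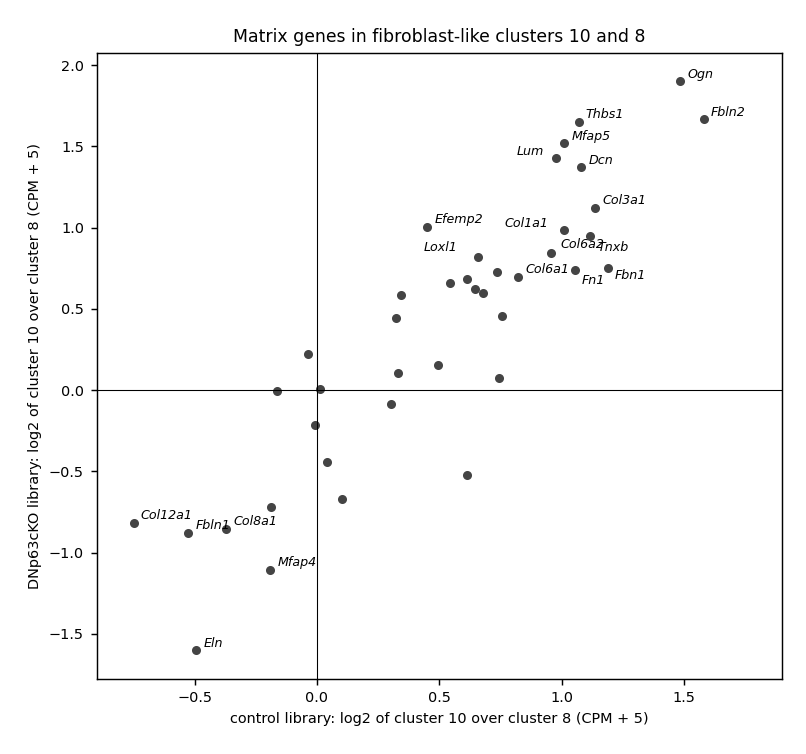
Log2 ratio of cluster 10 over cluster 8 (CPM + 5) for each of the 40 genes in the control library (x axis) and the DNp63cKO library (y axis), with the genes farthest from 0 named. Ogn (1.48 and 1.9) and Fbln2 (1.58 and 1.67) lie at the upper right and Col12a1 (-0.75 and -0.82) and Eln (-0.49 and -1.60) at the lower left.

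In fibroblast-like nuclei, 38 of the 40 genes were lower in DNp63cKO than in control. Their median log2 ratio was -0.25, where the median of all 11428 genes measured was 0.01 and 48.1% of them were lower. Past 1.5-fold, 5 were lower and 0 higher, against 5% and 6.13% of all genes, so the differences were mostly in 1 direction but rarely that large. The summed level was 38830 CPM in DNp63cKO against 48780 CPM in control, a log2 ratio of -0.33 (-0.35 to -0.31), and without Col1a1, Col1a2 and Col3a1 it was -0.19 (-0.22 to -0.16). Muscle markers summed to 4048 CPM in these nuclei in DNp63cKO and 3467 CPM in control, and fibroblast markers to 4627 and 4786 CPM. With free RNA subtracted, the shares of UMIs given to the list were 5.41% and 6.47%.

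Among fibrillar collagens, the chains of types I and III were lower and those of type V differed little. Col3a1 was at 7952 CPM in DNp63cKO against 11448 CPM in control, a log2 ratio of -0.53 (-0.57 to -0.48). Col1a1 was at 4402 and 6170 CPM (-0.49), and Col1a2 at 5980 and 7777 CPM (-0.38). Col5a1 and Col5a2, chains of the collagen that starts fibrils, were at 465 and 507 CPM and at 981 and 926 CPM, and both intervals included 0.

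The promoters of 26 of the 40 genes are in the RefSeq table (GRCm38.p6). Shown here are 150 bases before the start site for Col3a1 and Bgn, both lower in every fibroblast-like and smooth-muscle-like cluster of DNp63cKO, and for Postn, which was not, with any TATAAA or CCAAT on either strand in capitals. The windows lie at chr1:45311388-45311537, chrX:73483451-73483600 and chr3:54360957-54361106, all on the plus strand and outside annotated exons.
Col3a1: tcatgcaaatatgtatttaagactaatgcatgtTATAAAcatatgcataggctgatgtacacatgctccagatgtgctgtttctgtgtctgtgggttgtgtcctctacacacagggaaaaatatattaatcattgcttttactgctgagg
Bgn: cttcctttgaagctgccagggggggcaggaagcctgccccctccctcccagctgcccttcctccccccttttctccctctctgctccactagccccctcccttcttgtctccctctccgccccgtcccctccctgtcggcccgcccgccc
Postn: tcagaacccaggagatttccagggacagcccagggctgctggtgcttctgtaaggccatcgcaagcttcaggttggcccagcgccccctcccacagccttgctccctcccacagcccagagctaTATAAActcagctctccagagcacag

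TATAAA begins 117 bases before the Col3a1 start and 26 bases before the Postn start, and the Bgn window holds neither motif. Over all 32851 windows of 150 bases in the table, 7.57% hold TATAAA and 24.5% hold CCAAT, and of the 26 genes 4 and 6 do. The Col3a1 gene lies at chr1:45311538-45349706 and Postn at chr3:54361109-54391037 (GRCm38, GENCODE M21). The letters are given as description only.

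The other collagens were lower by smaller or less certain amounts. Col8a1, a short-chain collagen, was at 45.8 CPM in DNp63cKO against 78.8 CPM in control from 54 and 67 UMIs (-0.72, interval -1.33 to -0.24). Col14a1 was at 821 and 1059 CPM (-0.36), and Col6a2 at 442 and 575 CPM (-0.38). Col6a1 was at 628 and 765 CPM (-0.28). For Col6a3, Col12a1, Col15a1, Col16a1 and Col18a1 the ratios lay between -0.31 and -0.06 with intervals that included 0.

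Of the 11 elastic fibre genes, 10 were lower, with a median of -0.17. Eln, the elastic core itself, was at 228 CPM in DNp63cKO against 359 CPM in control (-0.64, interval -0.90 to -0.41). Fbln2 was at 154 and 234 CPM (-0.59), and Fbn1, the fibrillin of the microfibril, at 509 and 674 CPM (-0.40). The exception was Fbn2, the fibrillin typical of developing tissue, at 984 and 938 CPM (0.07, interval -0.06 to 0.20), and at -0.14 on the log2 scale in nuclei with Y-linked and no Xist UMIs. Efemp2, Ltbp1, Mfap4, Mfap5, Emilin1, Fbln1 and Fbln5 had ratios from -0.29 to -0.03 with intervals that included 0.

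The cross-linking enzymes Lox and Loxl1, which oxidise lysines of collagen and elastin, were at 175 and 220 CPM (-0.32) and at 272 and 330 CPM (-0.27). Dcn was at 3390 and 3975 CPM (-0.23), Lum at 793 and 900 CPM (-0.18), and Bgn at 194 and 246 CPM (-0.33). Over the class these proteoglycans were thus lower in DNp63cKO by less than 1.5-fold. For Dcn and Lum the clusters differed. In cluster 8 Dcn was at 2062 and 2578 CPM and Lum at 469 and 611 CPM. In cluster 10 Dcn was at 5342 and 5456 CPM, and Lum was higher in DNp63cKO, 1270 and 1207 CPM. Over the class, Ogn (192 and 214 CPM) and the large proteoglycan Vcan (631 and 647 CPM) had intervals that included 0. Fmod, fibromodulin, was counted in only 14 and 28 UMIs (-1.17, interval -2.51 to -0.50), and was at 0.05 in nuclei with Y-linked and no Xist UMIs.

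Matricellular proteins, which sit in the matrix and signal to cells, were uneven. Thbs2 was at 325 CPM in DNp63cKO against 505 CPM in control (-0.63, interval -0.84 to -0.43), and Thbs1 at 180 and 234 CPM (-0.37). Sparc, a collagen chaperone of the matrix, was at 1471 and 1811 CPM (-0.30), and Tnc, tenascin C, at 89.1 and 122 CPM (-0.44). Postn, periostin, was at 3164 and 3309 CPM (-0.06, interval -0.14 to 0.01), a narrow interval around little difference. Fn1, fibronectin, was at 854 and 943 CPM (-0.14), and Tnxb was at 333 and 344 CPM (-0.04).

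Taken over the 40 genes, the lower values were not from 1 cluster alone. The median log2 ratio was -0.25 in cluster 8 and -0.28 in cluster 10, and 32 of 40 genes were lower in each. The summed log2 ratio was -0.26 in cluster 8 and -0.27 in cluster 10, against -0.33 over the class. Cluster 10, with the higher matrix level, held 383 of 910 fibroblast-like nuclei in DNp63cKO and 391 of 820 in control. The class ratio can thus also hold a difference in the mix of clusters, whose part was not tested. Postn in cluster 10 was at 4047 CPM in DNp63cKO against 3946 CPM in control. After thinning each nucleus to 700 UMIs, Eln was detected in 10.3% of 689 DNp63cKO fibroblast-like nuclei (interval 8.14 to 12.8%) and 18.9% of 530 control nuclei (15.6 to 22.5%). Without thinning the shares were 15.3% and 20.4%. In urothelium-like nuclei, which should lack Eln, 1.12% and 1.02% held an Eln UMI at the same depth.

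Smooth-muscle-like nuclei were recognised by 14 contractile markers such as Myh11 and Acta2, which summed to 24049 CPM in DNp63cKO against 25694 CPM in control. Of the 40 matrix genes 37 were lower in DNp63cKO, with a median log2 ratio of -0.27 against 0.01 over 13313 genes. Past 1.5-fold, 4 were lower and 0 higher, against 2.84% and 3.33% of all genes. The summed log2 ratio was -0.32 (-0.34 to -0.30). Malat1, an RNA kept in the nucleus, was at 16641 and 11631 CPM in these nuclei and the mitochondrial share was 1.78% and 2.27%, and their part in the ratios was not tested.

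The 4 genes past 1.5-fold were Eln, Col8a1, Thbs1 and Ogn. Eln was at 78.5 CPM in DNp63cKO against 145 CPM in control (-0.84, interval -1.13 to -0.64). Thbs1 was at 38.9 and 61.7 CPM (-0.61) and Ogn at 52.5 and 82.3 CPM (-0.60), while Col8a1 rested on 20 and 47 UMIs (-0.71). The estimated free RNA level of Thbs1 was 27.6 and 26.7 CPM, a large part of its level, and its ratio with free RNA subtracted was -1.28. Thbs1 and Col8a1 did not keep their direction under every alternative: in nuclei with Y-linked and no Xist UMIs they were 0.10 and 0.20, and Col8a1 was 0.67 after thinning. Over the class, Eln and Ogn were lower under every alternative run, though Ogn was higher in DNp63cKO in smooth-muscle-like cluster 7.

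Fibrillar and microfibrillar collagens were lower in muscle as well. Col3a1 was at 2829 CPM in DNp63cKO against 3992 CPM in control (-0.50), Col1a1 at 1605 and 2162 CPM (-0.43) and Col1a2 at 1768 and 2342 CPM (-0.40). All 3 chains of collagen VI were lower, Col6a1 at 417 and 584 CPM (-0.48), Col6a2 at 239 and 346 CPM (-0.52) and Col6a3 at 511 and 609 CPM (-0.25). Sparc was at 1056 and 1491 CPM (-0.49), and Lox at 53.2 and 78.9 CPM (-0.53). Fbn2 (560 and 516 CPM, 0.12), Ltbp1 (197 and 190 CPM, 0.05) and Postn (913 and 884 CPM, 0.05) were the 3 genes that were higher.

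**Figure D3:**
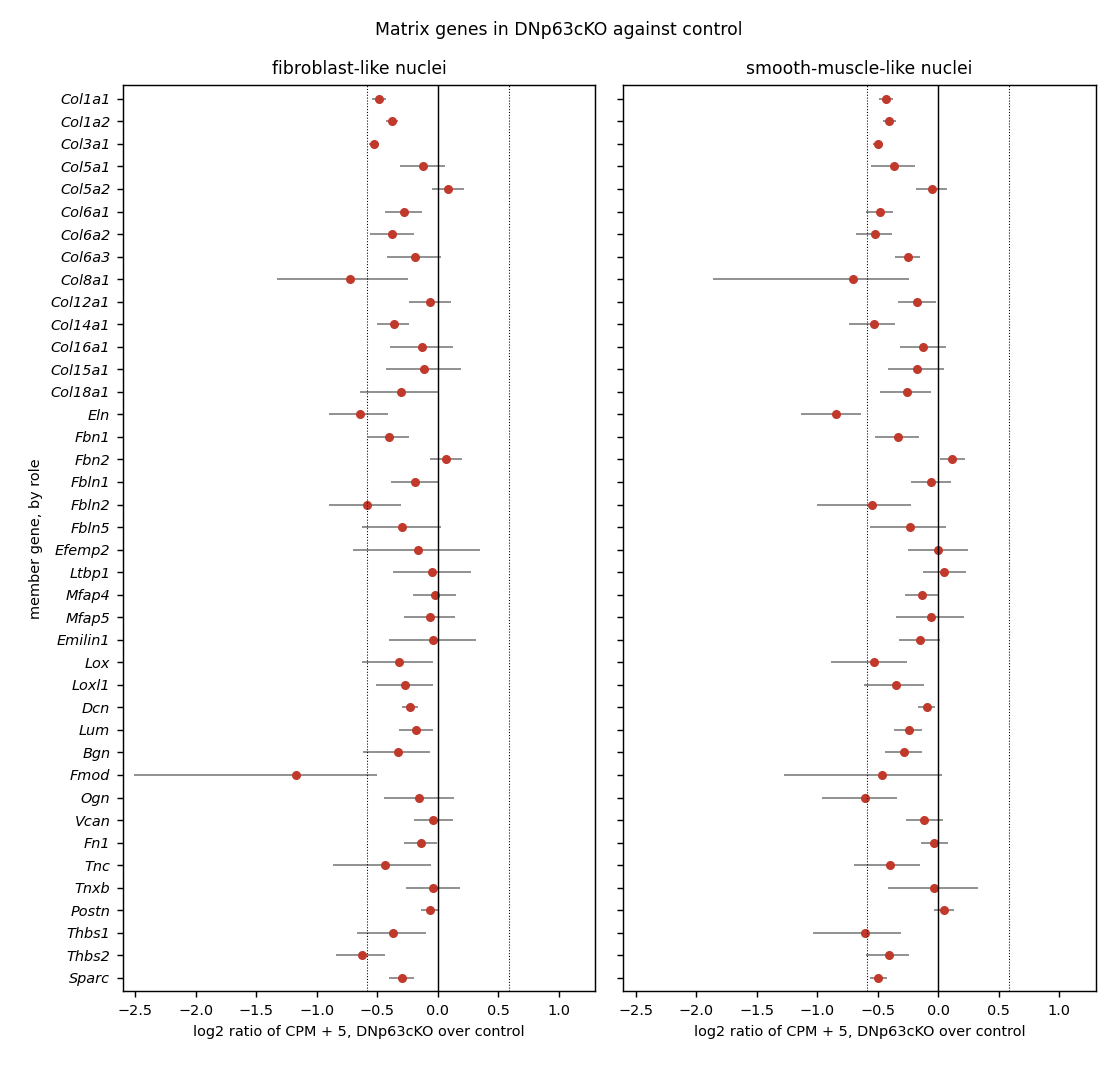
Log2 ratio of CPM + 5 (DNp63cKO over control) for the 40 genes in fibroblast-like and smooth-muscle-like nuclei, with grey lines for exact 95% counting intervals of the plain CPM ratio and dotted lines at 1.5-fold. Most points lie left of 0, 38 of 40 and 37 of 40, and Fbn2 lies right of 0 in both classes.

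The muscle value was not shared evenly by its 4 clusters. The median log2 ratio was -0.24 in cluster 6, -0.27 in cluster 11 and -0.14 in cluster 14, but it was -0.01 in cluster 7. Cluster 7, led by Cpa6, Cacna2d3 and Ryr3, held 531 of 1279 muscle nuclei in DNp63cKO and 432 of 1609 in control, and its summed matrix level was low, 10547 and 11374 CPM against 19342 and 22690 CPM in cluster 11. The class ratio can thus hold a difference in the mix of clusters as well as differences within them. Cluster 6 was also led by haemoglobin genes when set against all nuclei, so muscle values are given by cluster too.

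Over the 6 fibroblast-like and smooth-muscle-like clusters, 30 of the genes were measured in all, and 9 were lower in DNp63cKO in every one, against 6.47% of all genes measured in all 6. These were Col1a1, Col3a1, Col6a1, Col12a1, Col18a1, Eln, Fbn1, Bgn and Sparc. Of these, Col18a1 was little above its estimated free RNA level in DNp63cKO. In fibroblast-like nuclei it was at 141 and 175 CPM, with free RNA levels of 136 and 130 CPM. In smooth-muscle-like nuclei it was at 126 and 151 CPM, with free RNA levels of 112 and 109 CPM. None of the 30 was higher in every cluster. The libraries are the same 2 in each cluster, so the clusters are not replicates.

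Elastin differed widely in some clusters and little in others. In fibroblast-like cluster 10 it was at 101 CPM in DNp63cKO against 296 CPM in control, and in cluster 8 at 315 and 419 CPM. In muscle clusters 11 and 6 it was at 76.2 and 166 CPM and at 88.4 and 163 CPM, but in clusters 7 and 14 at 82.3 and 91.9 CPM and at 57.5 and 61.1 CPM. In arterial-gene cluster 16 it was at 460 and 1032 CPM, while in endothelium-like cluster 13 it was at 166 and 153 CPM. In pericyte-like nuclei it was at 61.4 and 355 CPM, from 7 and 31 UMIs (-2.44, interval -3.96 to -1.32), and those 7 UMIs came from 6 nuclei.

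**Figure D4:**
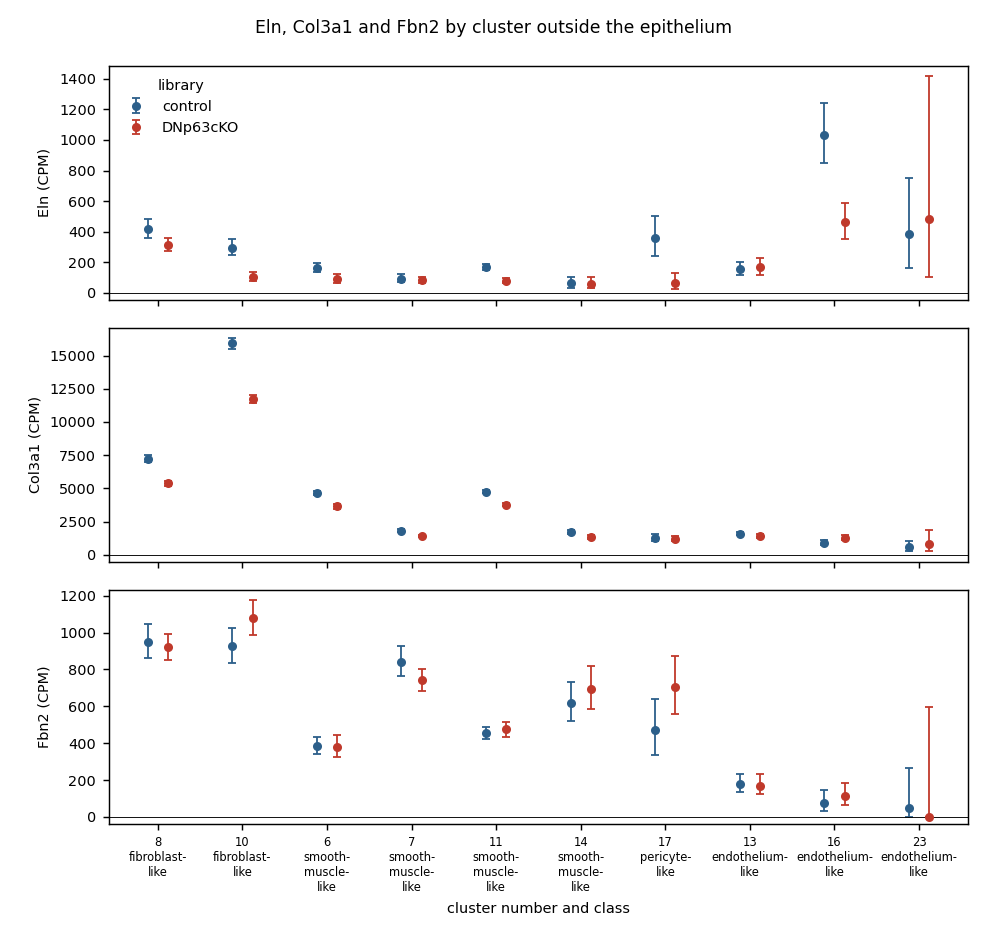
Level of Eln, Col3a1 and Fbn2 (CPM, linear axes) in every fibroblast-like, smooth-muscle-like, pericyte-like and endothelium-like cluster, control in blue and DNp63cKO in red, with exact 95% counting intervals. Eln in cluster 16 is at 1032 CPM in control and 460 CPM in DNp63cKO, Col3a1 is lower in DNp63cKO in all 6 fibroblast-like and smooth-muscle-like clusters, and Fbn2 differs in both directions.

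The ratios were also set beside gene length, whose part in them was not tested. The median member spans 41.6 kb in the genome, and in fibroblast-like nuclei the 20 shorter members had a median log2 ratio of -0.29 and the 20 longer ones -0.16. In smooth-muscle-like nuclei the medians were -0.41 and -0.20. Over all genes the same division gave 0.03 and -0.00 in fibroblast-like and -0.01 and 0.05 in smooth-muscle-like nuclei. Another counted gene on the opposite strand overlaps 15 of the 40 genes, among them Eln (with Gm30003), Fbn1, Fn1, Thbs1 and Col18a1, and since strand use in counting is not given, reads of such pairs cannot be told apart.

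Endothelium-like nuclei measured 38 of the 40 genes and were mixed, with 25 lower and a median log2 ratio of -0.16. Past 1.5-fold, 5 were lower and 2 higher, against 10% and 9.72% of all genes, a share near the background. Sparc was at 1243 CPM in DNp63cKO against 1801 CPM in control (-0.53, interval -0.70 to -0.37), though in nuclei with Y-linked and no Xist UMIs its ratio was 0.62. Col15a1 was at 132 and 243 CPM (-0.86, but 0.04 in those nuclei) and Fbln2 at 250 and 387 CPM (-0.62). Tnc was at 18.4 and 76.6 CPM, but 23 of its 35 control UMIs came from the 16 control nuclei of cluster 23, which has the lymphatic genes Lyve1 and Prox1. Of 31 Thbs1 UMIs in control, 14 came from the same nuclei, and DNp63cKO had 5 nuclei there and no UMI of either gene. Eln was at 274 and 374 CPM (-0.44), and at 0.06 on the log2 scale without cluster 16. The estimated share of free RNA was 43.9% in DNp63cKO and 29.8% in control.

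Pericyte-like nuclei measured 22 genes, with a median of -0.17, and 5 lower and 1 higher past 1.5-fold, against 15.4% and 16.8% of all genes. Besides Eln, Col18a1 was at 184 CPM in DNp63cKO against 447 CPM in control (-1.25, interval -2.12 to -0.48). Its values rested on 21 and 39 UMIs, with free RNA levels of 263 and 140 CPM. Eln, at 61.4 and 355 CPM, had free RNA levels of 51.5 and 23.5 CPM. In DNp63cKO, Col18a1 was thus below and Eln little above the estimated free RNA level. Fbn2 was at 702 and 470 CPM (0.58, interval 0.02 to 1.16), with free RNA levels of 240 and 62.2 CPM. Epithelial genes used to estimate free RNA summed to 9595 CPM in these DNp63cKO nuclei and 4594 CPM in control.

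In macrophage-like nuclei Fn1 was at 1083 CPM in DNp63cKO against 5217 CPM in control. Of its 262 control UMIs, 171 and 51 came from 2 nuclei, so the gap rests on those nuclei. Thbs1 was at 104 and 418 CPM there, from 10 and 21 UMIs. In the 36 and 39 glia-like nuclei, Col18a1 was at 466 and 659 CPM from 19 and 24 UMIs and Tnc at 368 and 329 CPM from 15 and 12 UMIs. Both were above their fibroblast-like levels, and the estimated share of free RNA was 82.9% and 32.1%.

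In urothelium-like nuclei the members were low, and most were at the level free RNA would give. The free RNA level of each gene was taken as 19.9% of its library CPM in DNp63cKO and 19.0% in control, from muscle and mesenchymal genes outside the list. The median ratio of urothelium-like to free RNA level was 1.18 and 1.07. At least 1.5 times that level in both libraries were 6 genes, Col18a1, Thbs1, Fmod, Fn1, Ltbp1 and Efemp2. The other 34 lay between 0.850 and 1.62 times in DNp63cKO and between 0.849 and 1.52 times in control.

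Of the 40 genes 38 were higher in DNp63cKO urothelium-like nuclei, with a median log2 ratio of 0.42 against 0.01 over 14897 genes. Past 1.5-fold, 12 were higher and 0 lower, against 3.37% and 2.87% of all genes. The clusters were not alike. In cluster 4, with 1062 DNp63cKO and 61 control nuclei, the median was -0.14 and 24 of 38 measured genes were lower. In the other clusters the median was from 0.19 (cluster 2) to 0.73 (cluster 9). Col6a2, at 0.09 over the class, was lower in all 6 urothelium-like clusters that measured it. The part of the cluster mix in the class ratios was not tested. Fibroblast markers, none of them members, were also higher in DNp63cKO urothelium-like nuclei, 323 against 214 CPM. Postn was at 176 CPM in DNp63cKO against 91.4 CPM in control, where its free RNA levels were 163 and 89.9 CPM, and Dcn was at 191 and 107 CPM with free RNA levels of 187 and 116 CPM. These levels lay close to the free RNA level of each library and were not read as expression by epithelium. The free RNA level was itself set from muscle and mesenchymal genes in the same nuclei. A match to it therefore does not show where the RNA came from, and the source was not tested.

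Col18a1 stood far above free RNA, at 604 CPM in DNp63cKO (free RNA 74.7 CPM) and 579 CPM in control (86.3 CPM), with a ratio of 0.06 (interval -0.01 to 0.13). By cluster it was at 789 CPM in DNp63cKO against 513 CPM in control in cluster 2, and at 623 and 429 CPM in cluster 5. Both clusters were led by the basal keratins Krt5 and Krt14 when set against other classes, and cluster 5 by cell cycle genes such as Mki67 when set against all nuclei. In cluster 3 it was at 650 and 758 CPM. Thbs1, a matricellular inhibitor of vessel growth, was at 112 and 118 CPM over the class (free RNA 18.5 and 21.1 CPM) and at 250 and 179 CPM in cluster 2. Its class ratio was -0.07, and 0.47 without cluster 4. The Col18a1 ratio was -0.06 without cluster 2 and -0.25 in nuclei with Y-linked and no Xist UMIs. In both basal-keratin clusters these 2 genes were higher in DNp63cKO although their class levels were alike. They were also both higher in clusters 1 and 15, so this was not particular to the basal-keratin clusters. Over the 7 urothelium-like clusters, Col18a1 was higher in 5 and Thbs1 in 4.

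Fmod, which encodes the collagen-binding proteoglycan fibromodulin, had the largest ratio of the 40 genes in urothelium-like nuclei. It was at 43.5 CPM in DNp63cKO against 15.5 CPM in control (1.24, interval 1.17 to 1.81), against free RNA levels of 5.48 and 3.36 CPM. In cluster 2 it was at 170 and 40.8 CPM, from 103 and 82 UMIs, in cluster 5 at 75.7 and 16.2 CPM and in cluster 1 at 59.7 and 26.5 CPM. Basal keratins were among the leading genes of clusters 2 and 5 but not of cluster 1. In clusters 4 and 9, also without them, Fmod was at 6.32 and 8.87 CPM and at 0 and 1.91 CPM. Cluster 4 held only 61 control nuclei. Fmod reached 20 UMIs over both libraries in only 3 urothelium-like clusters, namely 1, 2 and 5. After thinning to 700 UMIs, Fmod was detected in 3.01% of 2060 DNp63cKO nuclei (interval 2.32 to 3.84%) and 1.25% of 4236 control nuclei (0.939 to 1.63%), and without thinning in 6.57% and 2.44%. In fibroblast-like nuclei at that depth it was detected in 0.581% and 1.51%.

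The urothelium-like class was made of different clusters in the 2 libraries: cluster 4 held 1062 DNp63cKO and 61 control nuclei, and cluster 3 held 53 and 1088. The Fmod ratio was 0.75 without cluster 3 and 2.21 without cluster 4, and it was higher in DNp63cKO under every alternative run. Fn1 was at 136 and 85.9 CPM over the class (0.63) but at 0.16 on the log2 scale without cluster 3. Among the 10 leading genes of clusters 1, 4 and 15 against all nuclei was a marker of another class and none of urothelium, so values are also given by cluster.

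**Figure D5:**
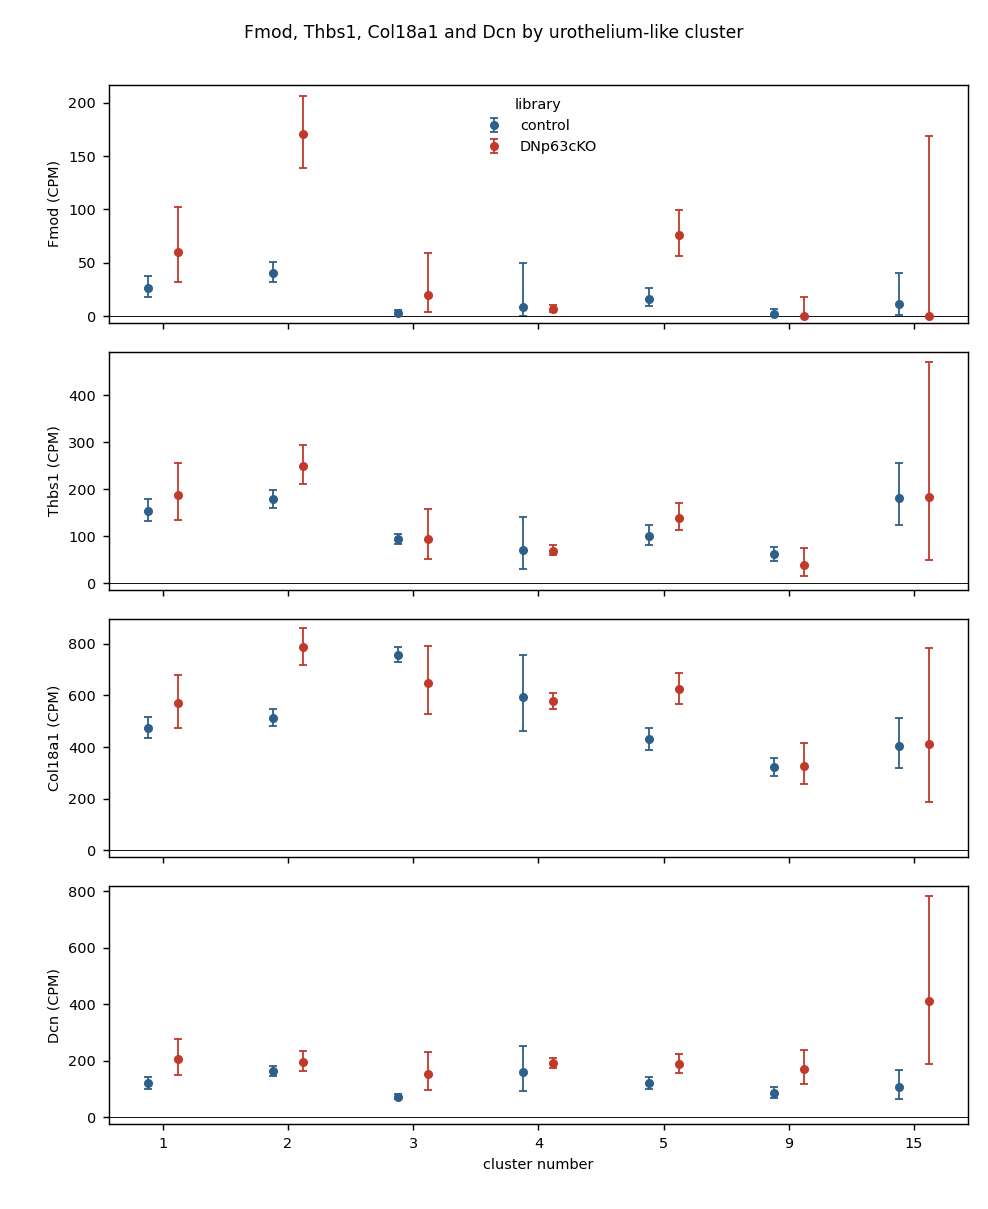
Level of Fmod, Thbs1, Col18a1 and Dcn (CPM, linear axes) in the 7 urothelium-like clusters, control in blue and DNp63cKO in red, with exact 95% counting intervals. Fmod is at 170 CPM in DNp63cKO cluster 2 and 40.8 CPM in control, while Dcn lies between 73.2 and 206 CPM in all clusters but cluster 15. The free RNA level of Dcn, estimated for the class and not by cluster, is 187 CPM in DNp63cKO and 116 CPM in control.

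Genes that make, remove or sense this matrix were read from 5 further lists, with the same all-gene values as above. In fibroblast-like nuclei, 20 of 25 measured genes of collagen synthesis and processing were lower in DNp63cKO (median -0.20), with 1 past 1.5-fold. P4ha3, a collagen prolyl hydroxylase subunit, was at 45.9 CPM in control with a ratio of -0.63. Crtap was at -0.50 and Adamts2, which trims procollagen, at -0.43, while Adamts14 was at 0.43 with an interval that included 0 (-0.16 to 1.15). In smooth-muscle-like nuclei 20 of 25 were also lower (median -0.28), with 2 past 1.5-fold. These were Tgm2, a transglutaminase, at 143 CPM in control with a ratio of -0.72, and P3h4 at -0.60. Serpinh1, the collagen chaperone, was at -0.43 from 916 and 1431 UMIs.

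Matrix breakdown genes differed less, with medians of -0.11 in fibroblast-like and -0.04 in smooth-muscle-like nuclei. Mmp14, a membrane-bound collagenase, was lower in both, at -0.47 and -0.52, and Adamts4 had the largest ratio in fibroblast-like nuclei, -0.89 from 22 and 33 UMIs. Matrix receptors had medians of -0.14 and -0.19. Sdc1, a heparan sulfate receptor, had -1.49 in fibroblast-like and -1.75 in smooth-muscle-like nuclei, but it was also at -1.40 in urothelium-like nuclei, where it was at 404 CPM in control, and free RNA was not told apart from expression for it. Itga10, a collagen-binding integrin chain, was higher in smooth-muscle-like nuclei, 0.73.

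The TGF-beta pathway, which drives collagen genes in many tissues, had medians of -0.06 in fibroblast-like and -0.18 in smooth-muscle-like nuclei, with 13 of 19 and 15 of 20 genes lower. Smad7, an inhibitor of the pathway, was at -0.93 in smooth-muscle-like nuclei, and Tgif1 was at -0.79 in fibroblast-like nuclei from 32 and 43 UMIs. A list of 40 other interstitial matrix genes had a median of 0.02 in fibroblast-like nuclei, where 13 of 27 measured genes were lower, and -0.10 in smooth-muscle-like nuclei. Smoc2 was lower in both classes, -0.53 and -0.81. Spon1 was at 0.64 in fibroblast-like nuclei from 51 and 22 UMIs, with an interval that included 0 (-0.006 to 1.53). In urothelium-like nuclei Efemp1, a fibulin, had a ratio of 1.69 from 349 and 205 UMIs.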

How the data were processed

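Each deposited matrix holds raw whole-number UMI counts, 1 row per gene and 1 column per nucleus. The submitters' processing notes list mm10, Seurat 4.0.5, R 4.0.5, STARsolo and STAR 2.7.11a but assign them no roles. For annotation, intron counting, strand and barcode filter, the answer is not given in the sources used here. No nucleus had under 500 UMIs.

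Kept nuclei had at least 300 genes and no more than 5% mitochondrial UMIs (5491 in DNp63cKO, 8889 in control). The doublet caller's automatic threshold marked 0 nuclei in each library and so had not worked, and the 5% with the highest scores were removed (319 and 516). Leiden clustering (leidenalg 0.10.2, resolution 1, 30 components, 15 neighbours) gave 24 clusters. It used 2000 variable genes without the members, ranked with scanpy 1.11.5. A cluster took a name from markers by their mean level relative to the highest cluster, with at least 3 at 50 CPM and a score over 0.4. That rule and its threshold were changed after the data were seen. The 3 unnamed clusters were led by Carmn, Nrxn3 and liver genes and held 4.43% of DNp63cKO and 3.80% of control nuclei.

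UMIs were summed over the nuclei of a class in each library. A gene counted as measured with at least 20 UMIs over both libraries, and all 40 members were measured in fibroblast-like, smooth-muscle-like and urothelium-like nuclei. Intervals are exact Poisson (CPM), conditional binomial (ratios, without the added 5 CPM) and Clopper-Pearson (shares). The free RNA profile was assumed to equal the library's sum, with its share taken from 8 epithelial genes or, for urothelium, from muscle and mesenchymal genes. GENCODE M21 (GRCm38, the assembly of mm10) held 32445 of 32589 gene IDs and all 40 members. Ratios and intervals were tested on simulated counts. Members, lists and classes were chosen with earlier results of these data known. Of each further list, the genes named are among the 4 per class with the largest ratios and at least 50 UMIs.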

Additional observations from a re-analysis of the deposited data

How the results depend on the processing

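No paired analysis was possible because each genotype had 1 library. The median log2 ratio of the 40 genes was below 0 under all 13 alternatives in fibroblast-like nuclei (-0.46 to -0.16) and all 15 in smooth-muscle-like nuclei (-0.43 to -0.19), and above 0 under all 18 in urothelium-like nuclei (0.19 to 0.64). In endothelium-like nuclei it was below 0 under 12 of 14 (-0.72 to 0.15), and in pericyte-like nuclei under 7 of 11 (-1.27 to 0.88), so neither gives a stable direction. Eln ranged from -1.51 to -0.24 in fibroblast-like and from -1.50 to -0.56 in smooth-muscle-like nuclei. The genes followed were chosen after their values were seen.

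Counts past 1.5-fold moved more. With at least 500 genes per nucleus, 2 were lower in fibroblast-like and 6 higher in pericyte-like nuclei, and the list's shares of UMIs were 3.96% in DNp63cKO and 4.69% in control (fibroblast-like) and 1.67% and 2.03% (smooth-muscle-like). Without doublet removal, 3 were lower in fibroblast-like, 2 lower in smooth-muscle-like, 7 higher in urothelium-like and 3 higher in pericyte-like nuclei, with shares of 3.61% and 4.30%, and 1.60% and 1.92%. With members kept for clustering, 1 was higher in endothelium-like nuclei, 3 were lower and 4 higher in pericyte-like nuclei, and the fibroblast-like shares were 3.83% and 4.75%. At Leiden resolution 0.5, 2 were lower in smooth-muscle-like and 3 higher in pericyte-like nuclei, with smooth-muscle-like shares of 1.48% and 1.83%. In pericyte-like nuclei 4 were higher with means over nuclei, 2 with median-of-ratios scaling, and 8 were lower and 7 higher from 5 UMIs on.

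With free RNA subtracted, 3 were lower in fibroblast-like, 10 in smooth-muscle-like, 2 in urothelium-like and 20 in endothelium-like nuclei (1 higher), and 13 in pericyte-like nuclei (2 higher, median -1.27). The shares were then 5.41% and 6.47%, and 1.73% and 2.28%. In nuclei with Y-linked and no Xist UMIs (690 and 812), 13 were lower in fibroblast-like nuclei (median -0.46), 9 lower in smooth-muscle-like, 5 higher in endothelium-like, and 0 lower and 2 higher in pericyte-like nuclei (median 0.88). Of the genes past 1.5-fold, Fmod in fibroblast-like (0.050), Thbs1 (0.10) and Col8a1 (0.20) in smooth-muscle-like, and Col15a1 in endothelium-like nuclei (0.039) changed sign there. So did smaller differences, Sparc in endothelium-like (-0.53 to 0.62), Fbn2 in fibroblast-like (0.07 to -0.14), Col18a1 in urothelium-like (0.06 to -0.25) and Postn in smooth-muscle-like nuclei (0.05 to -0.01). The cause was not tested. Ratios near 0 changed sign elsewhere too: Postn in fibroblast-like nuclei was between 0.01 and 0.04 under 4 other alternatives. After thinning to 700 UMIs, an alternative chosen after seeing the data, 1 was higher in smooth-muscle-like nuclei, where Col8a1 was at 0.67, and 2 were lower and 4 higher in pericyte-like nuclei. Left-out clusters gave 3 lower in fibroblast-like nuclei (without cluster 10), 19 or 4 higher in urothelium-like nuclei (without cluster 2 or 3), and in endothelium-like nuclei 7 higher (without 13), 9 lower (without 16) or 3 lower (without 23). Pericyte-like nuclei formed 1 cluster, which could not be left out. At 1000 UMIs, Col1a2 was detected in 93.3% of DNp63cKO fibroblast-like nuclei, and Fmod in 4.13% and 1.69% of urothelium-like nuclei.

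Depth limits the small classes most. The ratio intervals had a median width to either side of 0.21 in fibroblast-like, 0.18 in smooth-muscle-like, 0.31 in urothelium-like, 0.58 in endothelium-like and 0.94 in pericyte-like nuclei. These widths hold counting error only, and the spread between pools of mice was not measured.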

Other observations

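Clustered alone and without the 40 genes, fibroblast-like nuclei formed 5 groups. The largest, led by Slit2, Moxd1 and Bmp4, gave 3.05% of its UMIs to the matrix genes in DNp63cKO and 4.02% in control. The next, led by Ebf2, Wnt2 and Scara5, gave 5.06% and 6.55%, and its Eln level was 86 CPM against 281 CPM in control. A group of 44 and 39 nuclei was led by cell cycle genes such as Dlgap5 and Hmmr, with Mki67 at 611 and 616 CPM, and gave 2.87% and 4.94%. Dcn in these cycling nuclei was at 1572 CPM in DNp63cKO and at 3330 CPM in control, a gap wider than in the class as a whole, and Eln was at 122 and 114 CPM. The last groups, of 29 and 23 and of 17 and 4 nuclei, gave 4.46% and 3.67%, and 2.83% and 2.66%. No test of these gaps was possible with 1 library per genotype.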
